A study of Mus musculus with 60 samples.

Results

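Astrocyte marker genes are genes whose transcripts are much more abundant in astrocytes than in the other cells of the brain. A set of 31 such genes, chosen by symbol as known astrocyte markers, was followed across 60 RNA-seq libraries of mouse prefrontal cortex. The choice was made with earlier results of these data known, so counts of called members beside the share over all genes are descriptions. All 31 were found among the 18088 genes of the normalised-count table, and all 31 passed the filter on low values. The mice were C57BL/6J, either wild type (WT) or heterozygous for the C456Y allele of Grin2b (Grin2b+/C456Y, here Het), which encodes a subunit of NMDA receptors (GluN2B). Pups of both genotypes received vehicle, fluoxetine (a serotonin reuptake inhibitor) or lithium (a mood stabiliser) from postnatal day 3 to 24, for 3 weeks, through the milk of their mother, and the tissue was taken on postnatal day 25. The 6 groups are WT vehicle, WT fluoxetine, WT lithium, Het vehicle, Het fluoxetine and Het lithium, each with 5 female and 5 male libraries. The dose that reached each pup is not in the labels, and pups of 1 mother share the drug. The labels do not say whether each library is a separate animal or which libraries share a litter, so p-values measure only the spread between these samples.

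Astrocytes clear glutamate from synapses, convert it to glutamine for neurons, buffer potassium, move water at the endfeet that cover blood vessels, and share ions and metabolites through gap junctions. They also store the brain's glycogen, release lipid carriers such as apolipoprotein E, and depend on hedgehog, Notch, bone morphogenetic protein and fibroblast growth factor signals that shape their maturation. In mouse cortex these cells are still maturing in the weeks before weaning, when the drugs were given.

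Each library held between 23901635 and 37769417 reads assigned to genes, and 17810 genes were tested. Values below are normalised read counts, that is, reads per gene divided by the library's size factor. The 10 values of a group are given as lowest, highest and median. A gene is said to have risen or fallen when limma's Benjamini-Hochberg adjusted p over all genes tested was below 0.05. In 10 libraries (9 of the 10 Het fluoxetine libraries, all but male replicate 1, and WT vehicle female replicate 2) a set of 16 pseudogenes was low. These pseudogenes were picked from these data, as those called between Het and WT under fluoxetine with more than a 4-fold change. The largest residual spread over all genes was in 4 libraries (replicate 5 of the WT lithium males, WT lithium females and Het vehicle males, and WT vehicle female replicate 2).

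The markers spanned a wide range of abundance in the vehicle-treated WT cortex. Per kb of transcript, Apoe, the main lipid carrier of the brain, stood highest in WT vehicle at 26267 ± 3731 normalised reads per kb (SD, n = 10). Glul, glutamine synthetase, followed at 16822 ± 1137, Clu (clusterin, a secreted chaperone) at 10128 ± 1212, and Slc1a2, the main glutamate transporter, at 7761 ± 899 normalised reads per kb. These values put the most abundant members above 99.3% of all genes in the level per kb. The defining markers Slc1a3 (percentile 98.7), Gfap (94.7), Gja1 (93.8), Aqp4 (88.6) and Aldh1l1 (75.5) were all well represented. The lowest were the hedgehog transcription factors Gli3 (35.2 ± 2.40 normalised reads per kb, percentile 30.6) and Gli2 (22.0 ± 3.12, percentile 24.9), then Agt (angiotensinogen) at 80.9 ± 33.5 and Sox9, a glial transcription factor, at 121 ± 14.8. Several members are not exclusive to astrocytes. For example, Apoe is also made by microglia, S1pr1 by endothelium, Fabp7 by radial glia and Glul by oligodendrocytes.

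**Figure D1:**
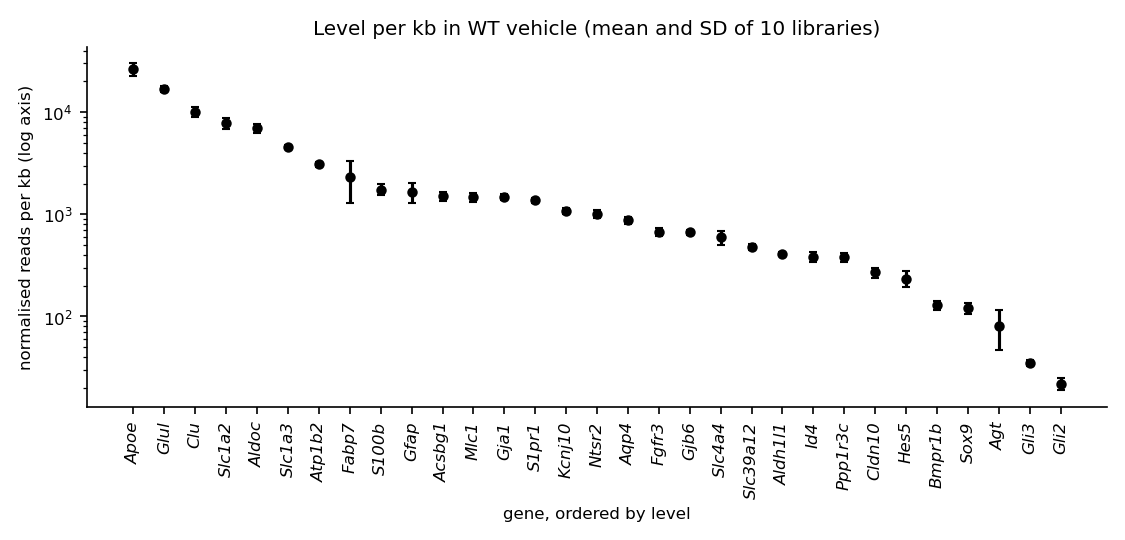
Level of the 31 markers in WT vehicle, in normalised reads per kb of transcript on a log axis; points are means and bars the SD of 10 libraries. The order runs from Apoe at 26267 to Gli2 at 22.0 normalised reads per kb, and Agt and Fabp7 have the widest bars.

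The members also differed in how steady they were between libraries of 1 group. Around the group means, the SD of log2(value + 1) was 0.753 for Fabp7, a fatty acid binding protein of radial glia and young astrocytes, and 0.610 for Agt. It was 0.335 for the intermediate filament gene Gfap, and only 0.11 for Glul and 0.11 for the glutamate transporter gene Slc1a3. Across the 60 libraries Fabp7 ran from 303 to 4431 normalised reads and Agt from 49.6 to 479. A change of the same size is therefore harder to detect for Fabp7, Agt and Gfap than for the other members.

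After the 12 means of genotype, drug and sex were taken out, most members varied together. Over the 465 pairs of members the median correlation across the 60 libraries was 0.36, from -0.49 to 0.89, with 159 pairs above 0.5 and 62 below 0. These are descriptions across libraries that share size factors and tissue composition. The closest pair was Aqp4, the water channel of the endfeet, and Gja1, a gap junction connexin (r = 0.89), followed by the neurotensin receptor gene Ntsr2 and Clu (r = 0.88) and by Slc1a2 and the zinc transporter gene Slc39a12 (r = 0.86). The most opposed pair was Slc1a2 and Agt (r = -0.49). Glul had the highest median correlation with the other members (0.59), and Agt (0.010) and Aldh1l1 (0.056), the folate enzyme gene used as a general astrocyte marker, had the lowest.

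Of the 7 comparisons between groups, lithium in WT mice had the most called markers. Compared with WT vehicle, 15 of the 31 markers fell and none rose, while 19.2% of all genes tested were called in either direction and 9.87% were called lower. The members' median log2 fold was -0.18 against 0.0039 over all genes, and 27 of the 31 folds were negative. The genes that fell came from 7 of the 8 functional groups of members: 2 of 3 for glutamate uptake, 2 of 5 for ion and water homeostasis, 2 of 3 for gap junctions and cell contacts, 4 of 5 for metabolism, 2 of 3 for secreted proteins, 1 of 3 for filament and small binding proteins, and 2 of 4 for surface receptors. None of the 5 transcription regulators was called. In bulk tissue, fewer astrocytes and less RNA per astrocyte cannot be told apart.

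The gene with the smallest p was S100b, which encodes a calcium-binding protein. It ranged from 2278 to 3367 (median 2564) in WT vehicle and from 1476 to 2182 (median 2025) in WT lithium. Every lithium library lay below every vehicle library, the only member for which the groups of 10 did not overlap; over all genes 0.124% had all lithium libraries below all vehicle libraries. S100b fell by 24.0% (limma log2 fold -0.40, SE 0.059, adjusted p = 7.2e-06). Whether its fall lay in astrocytes alone was not tested.

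Ppp1r3c encodes a subunit that brings a protein phosphatase to glycogen and promotes glycogen storage. It ranged from 868 to 1176 (median 1038) in WT vehicle and from 537 to 886 (median 821) in WT lithium. The groups overlapped only narrowly, and all 10 lithium libraries lay below the vehicle mean of their own sex. Ppp1r3c fell by 24.7% (limma log2 fold -0.41, SE 0.067, adjusted p = 2.8e-05). S1pr1, a receptor for sphingosine-1-phosphate, ranged from 3686 to 4467 (median 4187) in WT vehicle and from 2684 to 3833 (median 3478) in WT lithium. It too was below the vehicle mean of its sex in 10 of 10 lithium libraries (limma log2 fold -0.29, SE 0.055, adjusted p = 1.8e-04).

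At the endfeet, Mlc1, a membrane protein of the astrocyte contacts around vessels, ranged from 3332 to 4738 (median 4179) in WT vehicle and from 2843 to 3794 (median 3278) in WT lithium, and fell by 19.3% (limma log2 fold -0.31, SE 0.060, adjusted p = 2.7e-04). Aqp4 ranged from 3722 to 4852 (median 4473) in WT vehicle and, more widely, from 1876 to 4854 (median 3454) in WT lithium. Aqp4 fell (limma log2 fold -0.36, SE 0.10, adjusted p = 0.0131), with 8 of 10 lithium libraries below the vehicle mean of their sex. Of the other homeostatic genes, Atp1b2 (a sodium-potassium pump subunit; log2 fold -0.15, SE 0.058), Slc4a4 (a bicarbonate transporter; log2 fold -0.17, SE 0.096) and Kcnj10 (the inward rectifier potassium channel; log2 fold -0.12, SE 0.074) did not pass the test.

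Gja1, the main connexin of astrocytes, ranged from 5149 to 6193 (median 5836) in WT vehicle and from 3177 to 6229 (median 4728) in WT lithium, with overlap at the upper end of the lithium group. Gja1 fell by 18.8% (limma log2 fold -0.30, SE 0.064, adjusted p = 7.4e-04). Gjb6, the other astrocyte connexin, had a log2 fold of 0.033 (SE 0.052) and was not called. Whether the 2 connexin genes responded differently was not tested. Cldn10, a claudin, fell with an adjusted p near the threshold (limma log2 fold -0.20, SE 0.073, adjusted p = 0.0465).

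Among the glutamate genes, Glul ranged from 42126 to 52313 (median 46563) in WT vehicle and from 38562 to 44256 (median 40579) in WT lithium. All 10 lithium libraries lay below the vehicle mean of their sex, and Glul fell by 13.5% (limma log2 fold -0.21, SE 0.050, adjusted p = 0.00226). Slc1a3 ranged from 18453 to 21471 (median 20745) in WT vehicle and from 15852 to 20841 (median 17556) in WT lithium, and fell by 12.1% (limma log2 fold -0.19, SE 0.050, adjusted p = 0.00684). Slc1a2, the more abundant transporter per kb, ranged from 74261 to 109000 (median 87753) in WT vehicle and from 63017 to 113940 (median 86184) in WT lithium. Its groups overlapped almost entirely, and it was not called (limma log2 fold -0.089, SE 0.078, adjusted p = 0.450).

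Of the metabolic genes, Acsbg1, which activates fatty acids, fell (limma log2 fold -0.29, SE 0.064, adjusted p = 8.9e-04), below the vehicle mean of its sex in 10 of 10 lithium libraries. Aldh1l1 ranged from 1557 to 1817 (median 1694) in WT vehicle and from 1058 to 2274 (median 1485) in WT lithium, where female replicate 5 stood far above the rest. It fell by 11.8%, with 9 of 10 lithium libraries below the vehicle mean of their sex. Slc39a12 and, among the receptors, Ntsr2 were also called, at log2 folds of -0.17 and -0.17. Of the secreted proteins, Clu (log2 fold -0.31) and Apoe (log2 fold -0.33) fell. Agt, which ran from 89.4 to 479 within WT lithium, was not called at a log2 fold of 0.35 (SE 0.27).

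The remaining members were not called. Gfap ranged from 2878 to 5718 (median 4545) in WT vehicle and from 2199.7 to 5437 (median 3326) in WT lithium, with a log2 fold of -0.31 and an SE of 0.15. Fabp7 had a log2 fold of -0.71 and an SE of 0.34. The receptor genes Fgfr3 and Bmpr1b, and Aldoc, a glycolytic aldolase, had log2 folds of -0.033, -0.12 and -0.13. The transcription regulators ran from -0.23 for Hes5, a Notch target, through Id4 (-0.11), Gli3 (-0.11) and Sox9 (0.0073) to Gli2 (0.062).

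Between 12 and 17 members were called when each of the 20 libraries was left out in turn, and 11 of the 15 genes were called every time. Ntsr2, Cldn10, Slc39a12 and Aldh1l1 were lost in 12, 13, 10 and 2 of the 20 fits; for Aldh1l1 these were the fits without WT lithium female replicate 4 (adjusted p = 0.0594) or WT lithium male replicate 5 (adjusted p = 0.0786). Fitting only the 20 libraries compared left 10 members called, and leaving out the 4 libraries of largest spread gave 16.

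**Figure D2:**
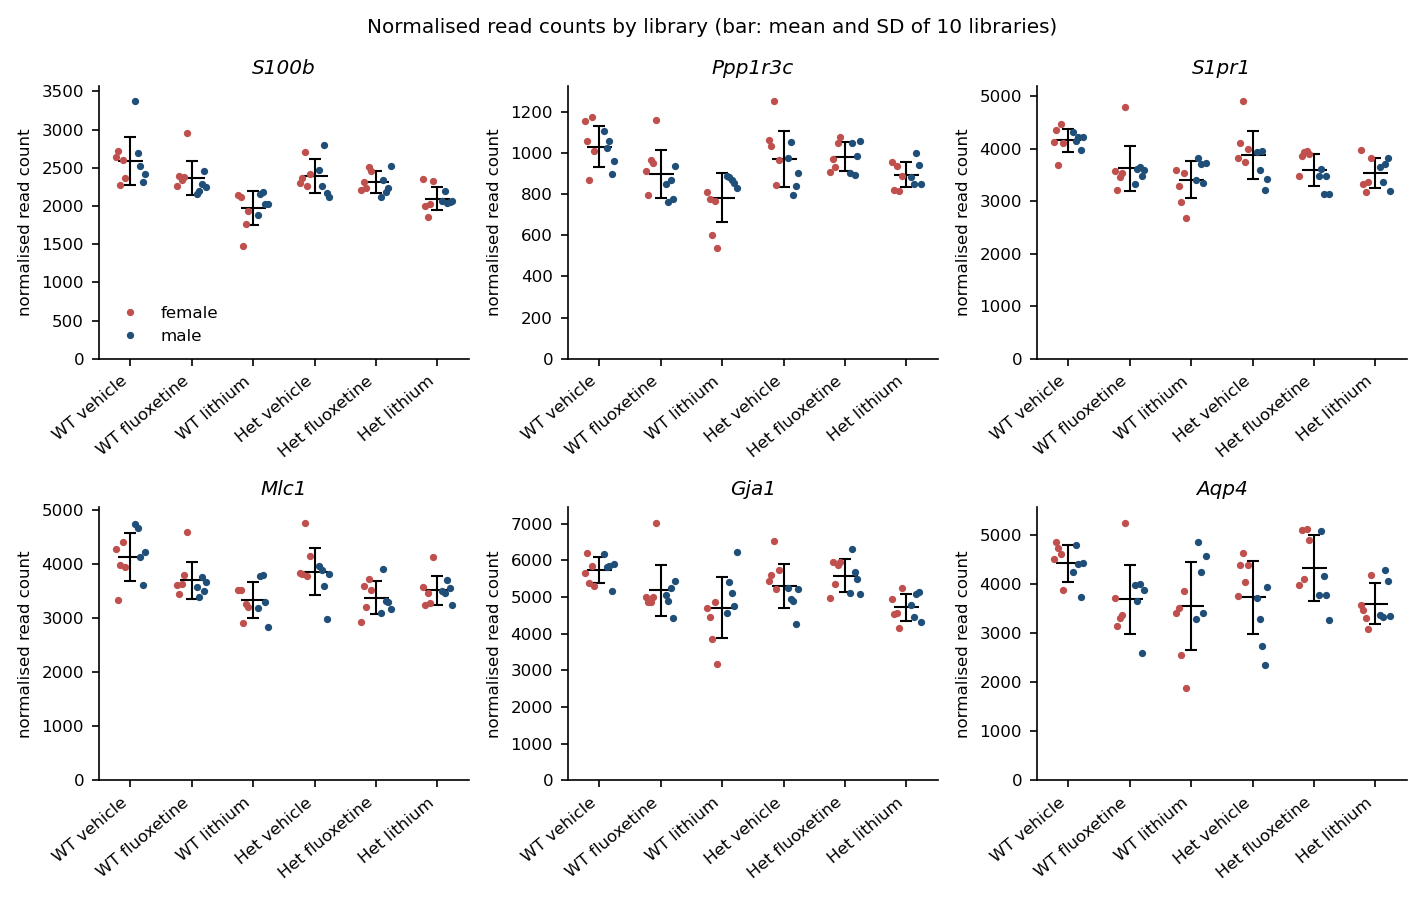
Normalised read counts of S100b, Ppp1r3c, S1pr1, Mlc1, Gja1 and Aqp4 in every library, by group; points are libraries (red female, blue male), bars the mean and SD of 10 libraries. WT lithium sits below WT vehicle in each panel, without overlap for S100b, and the Het groups lie between or overlap them.

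The proximal upstream sequences of 4 of the genes that fell are shown because these are the called genes with the smallest p for which RefSeq's table gave a window lying outside the annotated gene. Each is the stretch from 250 to 51 bases before the start (GRCm38.p6), 5′ to 3′ on the gene's own strand. Of the 31 members, 26 matched the table. Capitals mark matches, on either strand, to 1 of 6 motifs: TCF/LEF (ATCAAAG), SOX (ACAATGG), RBPJ (GTGGGAA), E-box (CACGTG), STAT (TTCCNGGAA) and GC box (GGGCGG).
S100b, chr10:76253586-76253785, plus strand: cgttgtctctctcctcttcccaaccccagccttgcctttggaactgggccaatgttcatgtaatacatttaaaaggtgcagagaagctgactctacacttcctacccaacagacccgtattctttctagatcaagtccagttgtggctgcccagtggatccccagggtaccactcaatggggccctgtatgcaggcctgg
Ppp1r3c, chr19:36736655-36736854, minus strand: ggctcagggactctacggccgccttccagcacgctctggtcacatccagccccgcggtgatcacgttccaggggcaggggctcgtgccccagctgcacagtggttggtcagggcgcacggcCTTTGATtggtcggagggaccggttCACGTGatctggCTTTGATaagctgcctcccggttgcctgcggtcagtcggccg
Gja1, chr10:56377050-56377249, plus strand: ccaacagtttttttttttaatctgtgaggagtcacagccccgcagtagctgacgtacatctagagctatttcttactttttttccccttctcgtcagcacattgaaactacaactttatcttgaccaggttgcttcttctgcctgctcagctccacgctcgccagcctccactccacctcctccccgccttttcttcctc
Acsbg1, chr9:54661936-54662135, minus strand: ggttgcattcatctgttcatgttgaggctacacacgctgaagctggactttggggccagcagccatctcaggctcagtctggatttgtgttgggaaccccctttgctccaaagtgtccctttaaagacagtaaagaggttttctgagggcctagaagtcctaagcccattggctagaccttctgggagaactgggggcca

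In these windows only Ppp1r3c held any of the motifs: the TCF/LEF letters at 2 places, read as CTTTGAT on this strand, and 1 E-box. TCF/LEF factors act with beta-catenin, which lithium is known to stabilise through inhibition of GSK3. Their part in the fall of Ppp1r3c was not tested. Over all 32851 promoter windows of the same length, 2.64% held the TCF/LEF letters. So did 2 of the 26 members, Ppp1r3c and Slc1a2, the latter not called for lithium in WT. Each member was counted by 1 window, while the windows of all genes were not merged by gene. The E-box was in 4.34% of all windows and in 2 members (Ntsr2 and Ppp1r3c), and the RBPJ letters in 4.35% and in 2 members (Aldoc and Hes5). SOX letters were in 2.42% of windows and in Hes5, STAT letters in 0.697% and in Agt, and the GC box in 24.6% and in 7 members. A match describes letters in a window and does not show binding. S100b, Gja1 and Acsbg1 fell without any of these letters in the windows shown.

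Within each sex, the members that fell with lithium in WT overlapped in part. In females 8 members fell, when 5.73% of all genes were called lower, and in males 10 fell, when 10.3% were called lower; 4 genes (S100b, S1pr1, Mlc1 and Glul) were called in both. In females Ppp1r3c (log2 fold -0.60, SE 0.094, adjusted p = 6.4e-05), Aqp4 (log2 fold -0.61, SE 0.15, adjusted p = 0.00484), Gja1 (log2 fold -0.45, SE 0.091, adjusted p = 0.00104) and Slc1a3 (log2 fold -0.25, SE 0.071, adjusted p = 0.0180) were called by limma and in males they were not. In males Apoe (log2 fold -0.60, SE 0.13, adjusted p = 0.00223), Clu (log2 fold -0.46, SE 0.095, adjusted p = 0.00152), Acsbg1 (log2 fold -0.37, SE 0.090, adjusted p = 0.00476), Aldh1l1 (log2 fold -0.37, SE 0.083, adjusted p = 0.00253), Aldoc (log2 fold -0.35, SE 0.092, adjusted p = 0.00749) and Ntsr2 (log2 fold -0.26, SE 0.089, adjusted p = 0.0312) were called by limma and in females they were not. All 5 lithium libraries lay below all 5 vehicle libraries for 7 members in females (background 2.74% of genes) and for 6 members in males (background 4.67%).

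The test of the difference between the sexes passed for 2 of the 31 members, when 9.64% of all genes passed it. They were Aldoc (males minus females, limma log2 fold -0.44, SE 0.13, adjusted p = 0.0318) and Aldh1l1 (limma log2 fold -0.37, SE 0.12, adjusted p = 0.0390). Apoe (adjusted p = 0.0539), Ppp1r3c (adjusted p = 0.0543) and Aqp4 (adjusted p = 0.0921) missed the limma threshold, so the lists of the sexes are not shown to differ for them. In replicate order, Aldoc measured 20389, 15862, 16127, 20631 and 19883 in WT vehicle females and 17187, 18798, 20304, 17714 and 25267 in WT lithium females. In males it measured 22050.5, 21456, 19667, 18548 and 18524 with vehicle and 15798, 16609.7, 16887, 16465 and 13095 with lithium. The male groups did not overlap, while the female groups did. Aldh1l1 measured 1669.9, 1586, 1557, 1755 and 1728 in WT vehicle females and 1626, 1524, 1561, 1439 and 2274 in WT lithium females, and 1785, 1684, 1695, 1817 and 1693 in WT vehicle males and 1357, 1494, 1389, 1475 and 1058 in WT lithium males.

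In both genes WT lithium female replicate 5 was the highest and WT lithium male replicate 5 the lowest of its group. Without the 4 libraries of largest residual spread, neither difference between the sexes was called (Aldoc log2 difference -0.23, limma adjusted p = 0.720; Aldh1l1 -0.15, adjusted p = 0.746). The difference was lost for Aldoc in 6 and for Aldh1l1 in 8 of the 20 fits that left out 1 library, among them those without WT lithium female replicate 5 (adjusted p = 0.114 and 0.144), WT lithium male replicate 5 (0.125 and 0.157) or WT vehicle female replicate 2 (0.113 for both). No member passed the test of a sex difference in the other 6 drug or genotype comparisons (limma; between 0 and 4 members had an unadjusted p below 0.05, and edgeR called 0).

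**Figure D3:**
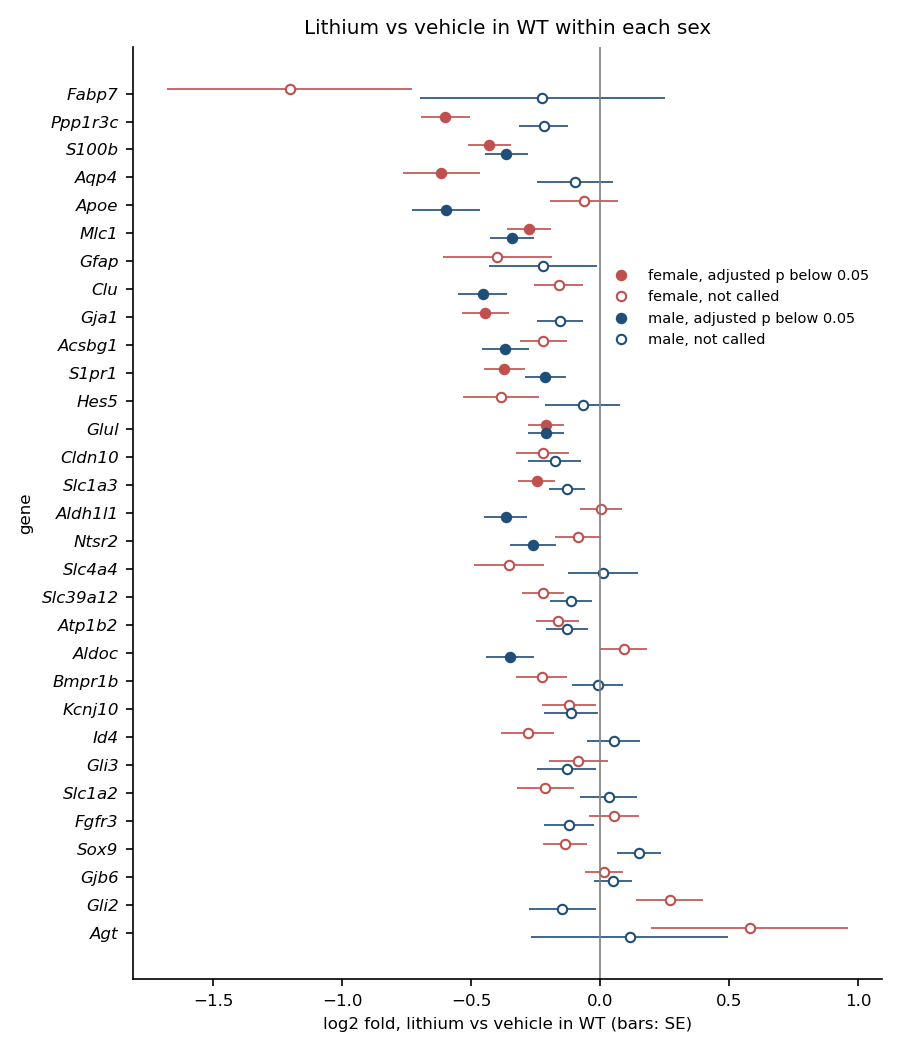
Log2 fold of lithium against vehicle in WT for the 31 markers, in females (red) and males (blue); points are limma estimates, filled where the adjusted p was below 0.05, and bars the SE. Most points lie left of 0 in both sexes, and Aldoc and Aldh1l1 are the 2 members whose sex difference passed the test.

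Markers of other cell types moved in the same comparison, in which 9.87% of all genes were called lower. Among those tested, 13 of 15 microglial, 11 of 15 endothelial, 9 of 11 pericyte and smooth muscle, 9 of 12 meningeal fibroblast and 6 of 12 oligodendrocyte precursor genes fell. Of the 15 oligodendrocyte genes 1 fell, of the 15 neuronal genes none was called, and 0 of 9 ependymal and 0 of 14 subventricular genes were called. The median log2 fold was -0.43 for meningeal fibroblast genes, -0.42 for pericyte and smooth muscle genes, and -0.30 for oligodendrocyte, microglial and endothelial genes. It was -0.24 for subventricular, -0.22 for oligodendrocyte precursor, -0.056 for ependymal and 0.034 for neuronal genes. The summed level of the oligodendrocyte markers spread widely, from 107160 to 204088 (median 173546) in WT vehicle and from 75763 to 197931 (median 128432) in WT lithium. The summed level of the microglial markers ran from 14298 to 16835 (median 15863) in WT vehicle and from 10339.9 to 14576 (median 13113) in WT lithium. For endothelium the ranges were 25133 to 31576 (median 29406) and 22109 to 27471 (median 24386), for pericytes and smooth muscle 9238 to 11359.5 (median 10272) and 5743 to 10208 (median 8409). The neuronal sum ran from 366524 to 453897 (median 406668) in WT vehicle and from 383852 to 428028 (median 401463) in WT lithium, and the sum of the 31 astrocyte members from 272846 to 332057 (median 300517) and 248698 to 283474 (median 265405). The astrocyte ranges overlapped only in part, while the neuronal range of WT lithium lay inside that of WT vehicle. Slc1a2, which was not called, was the largest part of the astrocyte sum (mean 89988 in WT vehicle). Of the listed markers in the table, which held 10 of the 12 ependymal genes and all those of the other cell types, none was at 0 in every library. The part of these other cell types in the lower astrocyte markers was not tested.

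Some called genes of these lists had larger folds than S100b or Ppp1r3c. Cldn5, the tight junction claudin of brain endothelium, fell (log2 fold -0.64, SE 0.091, adjusted p = 4.4e-06, limma), as did Cdh5 (log2 fold -0.46, SE 0.078, adjusted p = 4.2e-05, limma), Acta2 of smooth muscle (log2 fold -0.70, SE 0.13, adjusted p = 2.3e-04, limma) and Gpr17 of oligodendrocyte precursors (log2 fold -0.55, SE 0.084, adjusted p = 1.1e-05, limma). The complement gene C1qc of microglia fell as well (log2 fold -0.32, SE 0.061, adjusted p = 2.4e-04, limma).

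Among 40 further astrocyte-enriched genes, 12 fell and 2 rose in WT lithium, with a median log2 fold of -0.13. Over all genes 19.2% were called in that comparison and 9.87% were called lower. Phkg1, a phosphorylase kinase subunit (log2 fold -0.32, SE 0.067, adjusted p = 5.2e-04, limma), and Mfge8, a secreted opsonin (log2 fold -0.35, SE 0.080, adjusted p = 0.00180, limma), were among those that fell. Of 31 reactive astrocyte genes tested, 9 fell and 1 rose; the one that rose was Serpina3n, a protease inhibitor (log2 fold 0.37, SE 0.085, adjusted p = 0.00162, limma). In glycogen metabolism 9 of 26 fell and 1 rose. Beside Ppp1r3c, Pygb, a glycogen phosphorylase, fell (log2 fold -0.28, SE 0.053, adjusted p = 1.7e-04, limma) and Phka2, a phosphorylase kinase subunit, rose (log2 fold 0.22, SE 0.044, adjusted p = 3.0e-04, limma).

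The signalling lists that hold a member stand beside 19.2% of all genes called for lithium in WT and 9.87% called lower. The Notch list had 8 of 28 genes lower and 1 higher, and the bone morphogenetic protein and Id list 5 of 23 lower. The hedgehog list had 2 of 17 lower and 1 higher, near these shares. The 5 of 23 is near the share called in either direction. Notch3, which is mainly a pericyte gene, fell (log2 fold -0.42, SE 0.097, adjusted p = 0.00179, limma), and so did the signal transducer Smo of the hedgehog pathway (log2 fold -0.40, SE 0.091, adjusted p = 0.00155, limma) and the ligand gene Bmp4, which young oligodendrocytes express (log2 fold -0.53, SE 0.099, adjusted p = 1.7e-04, limma). In the sphingosine-1-phosphate list 4 of 15 fell and 3 rose, with S1pr1, S1pr3 (log2 fold -0.26, SE 0.065, adjusted p = 0.00307, limma) and S1pr5 (log2 fold -0.66, SE 0.16, adjusted p = 0.00240, limma) among those that fell. In the list of glutamate and GABA transport and cycling 5 of 21 fell and 3 rose, and Slc38a3, an astrocytic glutamine transporter, fell (log2 fold -0.35, SE 0.091, adjusted p = 0.00564, limma).

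In Het mice lithium changed no marker past the threshold. Compared with Het vehicle, 0 of 31 were called by limma or by edgeR, 10 had an unadjusted p below 0.05, and 0.983% of all genes were called. The median log2 fold of the members was -0.078, and 25 of 31 folds were negative. The smallest p belonged to Gli2, at 107 to 169.7 (median 133) in Het vehicle and 155 to 189 (median 166) in Het lithium, higher in all 10 lithium libraries than the vehicle mean of their sex (limma log2 fold 0.32, SE 0.092, adjusted p = 0.0703). Gli3, the related repressor, had a negative fold, at 225 to 365 (median 302) in Het vehicle and 191 to 292 (median 244) in Het lithium (limma log2 fold -0.26, SE 0.081, adjusted p = 0.0923). S100b ran from 2113 to 2799.7 (median 2334) in Het vehicle and from 1849.9 to 2354 (median 2055) in Het lithium (limma log2 fold -0.19, SE 0.059, adjusted p = 0.107). Gli2 passed when the 20 libraries compared were fitted alone, after GC correction, and without the 4 libraries of largest spread (with Aldh1l1); Gli3 passed without Het lithium female replicate 5 or Het vehicle female replicate 4. Of the 40 further astrocyte-enriched genes 2 fell, Slc7a11 (log2 fold -0.30, SE 0.074, adjusted p = 0.0287, limma) and Phkg1 (log2 fold -0.27, SE 0.067, adjusted p = 0.0315, limma).

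The test of whether lithium acted differently in the genotypes called no member (limma and edgeR 0 of 31; 8 with an unadjusted p below 0.05; 0.0674% of all genes called). Of the 31 differences 27 were positive, with a median of 0.12, that is, folds less negative or more positive in Het. The 3 with the smallest p were Ppp1r3c (limma log2 fold 0.30, SE 0.094, adjusted p = 0.207), Acsbg1 (log2 fold 0.24, SE 0.090, adjusted p = 0.301) and S100b (log2 fold 0.21, SE 0.083, adjusted p = 0.321). Ppp1r3c ranged from 794 to 1249 (median 969) in Het vehicle and from 815 to 997 (median 887) in Het lithium, against medians of 1038 and 821 in the matching WT groups. The larger number of called genes in WT is thus not a shown difference between genotypes.

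Under lithium, Het and WT showed no marker past the threshold (limma and edgeR 0 of 31; 4 with an unadjusted p below 0.05; 0.0281% of all genes called). The 3 genes with the smallest p were Ppp1r3c (limma log2 fold 0.21, SE 0.067, adjusted p = 0.217), Agt (log2 fold -0.69, SE 0.27, adjusted p = 0.314) and Hes5 (log2 fold 0.25, SE 0.10, adjusted p = 0.334). Agt ran from 89.4 to 479 (median 163) in WT lithium and from 99.4 to 130.3 (median 111) in Het lithium. The WT libraries spread more widely than the Het libraries. This comparison shares the WT lithium and Het lithium libraries with those above.

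Fluoxetine in WT lowered 3 of the 31 markers and raised none. Over all genes 8.43% were called and 4.08% were called lower, so 3 of 31 is close to the share called in either direction. The median log2 fold of the members was -0.091 against 0.00014 over all genes, and 24 of 31 folds were negative. The genes were Gli3, S1pr1 and Ppp1r3c. Gli3, a transcription factor of the hedgehog pathway that acts mostly as a repressor, ranged from 252 to 316 (median 286) in WT vehicle and from 193 to 303 (median 226) in WT fluoxetine, and fell by 19.1% (limma log2 fold -0.31, SE 0.081, adjusted p = 0.00962). S1pr1 ran from 3209 to 4795 (median 3559.9) in WT fluoxetine, and 9 of 10 libraries lay below the vehicle mean of their sex (limma log2 fold -0.20, SE 0.055, adjusted p = 0.0114). Ppp1r3c ran from 763 to 1158 (median 888) (limma log2 fold -0.20, SE 0.067, adjusted p = 0.0428). WT vehicle is the reference here as it was for lithium, so the 2 sets of folds are not independent.

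S1pr1 and Gli3 were called in all 20 fits that left out 1 library, Ppp1r3c in 6 of them. Without WT fluoxetine female replicate 5, which had the highest mean level over the members, 9 markers were called, adding Slc1a3, Aqp4, Mlc1, Slc39a12, Gja1 and Bmpr1b; without WT vehicle male replicate 4, 6 were called, after GC correction 9, and without the 4 libraries of largest spread 4, adding Mlc1. Within females or males alone no member was called by limma (6 and 11 with an unadjusted p below 0.05), when 2.18% and 2.13% of all genes were. In the same comparison over both sexes, 4.08% of all genes were called lower. Endothelial markers fell in 5 of 15 and pericyte markers in 1 of 11, and no microglial, neuronal or oligodendrocyte marker fell. The part of these cell types in the result was not tested. In the hedgehog list, Ptch1, the receptor and a pathway target, fell (log2 fold -0.38, SE 0.070, adjusted p = 1.8e-04, limma), as did Gli3, and Cdon, a coreceptor, rose (log2 fold 0.28, SE 0.064, adjusted p = 0.00245, limma).

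In Het mice fluoxetine lowered 8 markers and raised 1. Over all genes 39.0% were called and 19.9% were called lower, so the members' counts, 9 called and 8 lower of 31, lie near the background. Hes5, a Notch target that keeps glial progenitors undifferentiated, ranged from 236 to 439 (median 323) in Het vehicle and from 181 to 242 (median 209.6) in Het fluoxetine. The groups overlapped only at their edges, and Hes5 fell by 34.4% (limma log2 fold -0.61, SE 0.10, adjusted p = 9.1e-06). Id4, an inhibitor of helix-loop-helix factors and bone morphogenetic protein target, was the one that rose, at 1171 to 1566 (median 1337) in Het vehicle and 1486 to 1909 (median 1687) in Het fluoxetine (limma log2 fold 0.34, SE 0.072, adjusted p = 2.1e-04). Clu ran from 15101 to 19467 (median 17376) in Het vehicle and from 12876 to 15764 (median 14692) in Het fluoxetine (limma log2 fold -0.23, SE 0.067, adjusted p = 0.00494). Apoe ran from 28222 to 47954 (median 33463) in Het vehicle and from 24946 to 32119 (median 26686) in Het fluoxetine (limma log2 fold -0.32, SE 0.093, adjusted p = 0.00500). Aldoc (log2 fold -0.22, SE 0.065, adjusted p = 0.00569) and Ntsr2 (log2 fold -0.21, SE 0.063, adjusted p = 0.00575) also fell by limma, and so did Acsbg1, Mlc1 and Gli3, at log2 folds of -0.22, -0.19 and -0.25. Without the 4 libraries of largest spread 13 members were called, adding Cldn10, Aldh1l1, Aqp4 and Slc4a4, the first pair lower and the second higher. Within females 6 members fell and 1 rose, when 25.2% of all genes were called, and within males 1 fell and 2 rose, when 15.8% were called.

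The counts of the other lists stand beside the 39.0% of all genes called in this comparison. In the Notch list 12 of 28 fell and 1 rose, with Hes5, Numb, an inhibitor of Notch (log2 fold -0.35, SE 0.040, adjusted p = 2.0e-09, limma), and the ligand gene Jag2 (log2 fold -0.33, SE 0.054, adjusted p = 6.0e-06, limma) among those that fell. Of the 40 further astrocyte-enriched genes 11 fell and 2 rose, including Mt3, a metallothionein (log2 fold -0.51, SE 0.074, adjusted p = 6.3e-07, limma), and Cst3, a secreted protease inhibitor (log2 fold -0.34, SE 0.066, adjusted p = 5.4e-05, limma). Endothelial markers fell in 8 of 15, microglial in 1 of 15 and neuronal in 4 of 15, with 3 neuronal markers higher. The part of these cell types in the result was not tested.

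The Het and WT groups differed under fluoxetine in 11 markers, 9 lower and 2 higher in Het. Here 39.5% of all genes were called and 19.9% were called lower, so the members' share called is near the background. Within females 10 members were lower and 1 higher in Het, when 33.2% of all genes were called, and within males 0 of 31 were called by limma (5 with an unadjusted p below 0.05), when 3.10% of all genes were. No member passed the test of the difference between the sexes. Ntsr2 ranged from 2659 to 3882 (median 2888) in WT fluoxetine and from 2006 to 2662 (median 2402) in Het fluoxetine. The groups met only at the edge (limma log2 fold -0.33, SE 0.063, adjusted p = 6.0e-05). Within each sex the Ntsr2 values of Het and WT did not overlap. The share of all genes without overlap was not computed here. Clu ran from 15392 to 22609.7 (median 17494) in WT fluoxetine and from 12876 to 15764 (median 14692) in Het fluoxetine (limma log2 fold -0.27, SE 0.067, adjusted p = 0.00102). Bmpr1b, a receptor for bone morphogenetic proteins, was higher in Het, at 599.9 to 859 (median 732) against 519 to 787 (median 603) (limma log2 fold 0.27, SE 0.070, adjusted p = 0.00172). Apoe ran from 31877 to 40955 (median 35503) in WT fluoxetine and from 24946 to 32119 (median 26686) in Het fluoxetine (limma log2 fold -0.36, SE 0.093, adjusted p = 0.00197). Acsbg1 (log2 fold -0.22, SE 0.064, adjusted p = 0.00506) and Hes5 (log2 fold -0.34, SE 0.10, adjusted p = 0.00759) were also lower by limma. Aldh1l1, Aldoc, Fgfr3 (a fibroblast growth factor receptor) and Atp1b2 were lower and Slc39a12 higher, with log2 folds of -0.18, -0.20, -0.19, -0.14 and 0.14.

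The folds went with the base composition of the transcripts. Across the 31 members the log2 fold between Het and WT under fluoxetine and the GC content of the longest transcript had r = -0.87, as a description over genes of the same libraries. The 9 lower genes had GC contents of 51.9% to 62.1% and the 2 higher genes 42.2% and 43.2%. For fluoxetine against vehicle in Het the same r was -0.69, for fluoxetine in WT 0.49, and for lithium in WT 0.26, where the 15 genes that fell covered 41.4% to 59.5%. With each library's log2 values corrected for GC content before the fit, 1 of the 11 members remained called between Het and WT (Ntsr2, log2 fold -0.24, limma adjusted p = 0.0032). For fluoxetine in Het 6 were called: Aldoc, Ntsr2, Gli3, Id4 and Hes5 remained. Gli2 was added as higher (log2 fold 0.24, limma adjusted p = 0.0279), and Apoe, Clu, Acsbg1 and Mlc1 were lost.

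**Figure D4:**
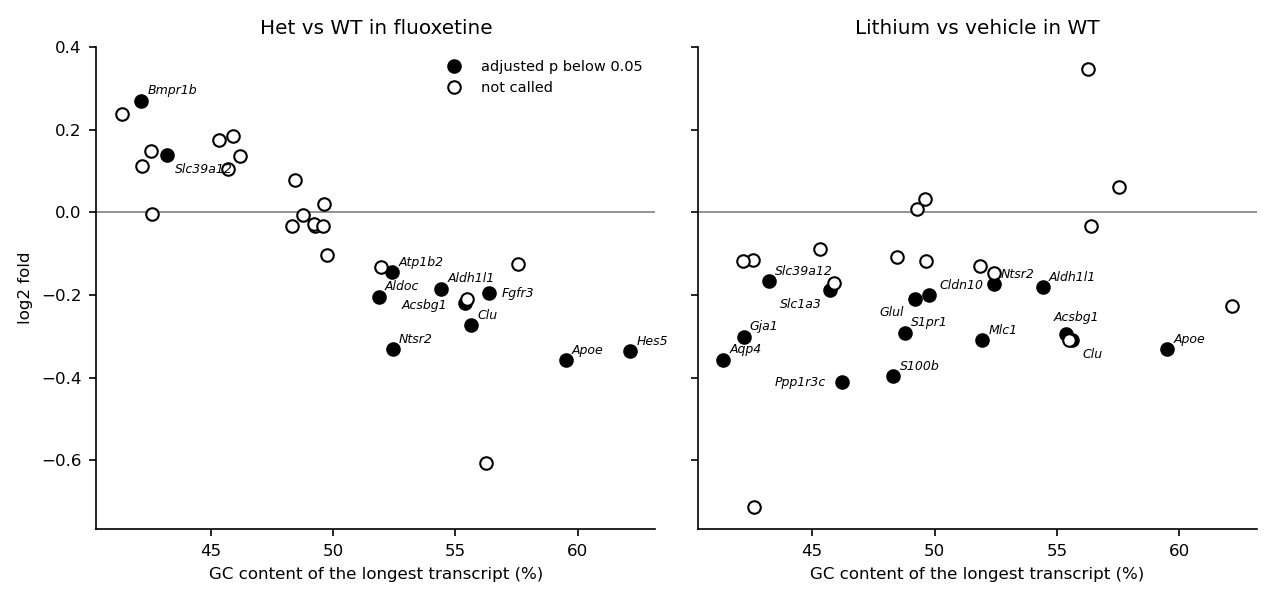
Log2 fold of each marker against the GC content of its longest transcript, for Het against WT under fluoxetine (left) and lithium against vehicle in WT (right); filled points had an adjusted p below 0.05. On the left the points fall from upper left to lower right (r = -0.87), and on the right the called genes spread over the whole GC range (r = 0.26).

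The pseudogenes were picked by their difference between Het and WT under fluoxetine, so a difference of the Het fluoxetine libraries was built in. The 10 libraries with low pseudogene counts nearly coincide with the Het fluoxetine group, so their difference and that of the group cannot be told apart. A fit with a term for them is therefore not an independent check. With a term for these libraries in the fit, 0 members were called between Het and WT under fluoxetine or for fluoxetine in Het, and Apoe changed sign in both. Leaving out single libraries gave 9 to 16 called members between Het and WT; Slc39a12 was lost in 14 of 20 such fits, Atp1b2 in 10, and Fgfr3 without WT fluoxetine female replicate 5 (limma adjusted p = 0.0814). Without the 4 libraries of largest spread 15 members were called, adding Slc1a2, Id4 and Aqp4 as higher and Agt as lower in Het. The counts of the other lists stand beside the 39.5% of all genes called between Het and WT under fluoxetine. Astrocyte-enriched genes outside the 31 showed 12 lower and 3 higher of 40 between Het and WT, again with Mt3 (log2 fold -0.46, SE 0.074, adjusted p = 8.5e-06, limma) and Cst3 (log2 fold -0.35, SE 0.066, adjusted p = 5.7e-05, limma) lower. Of the markers of other cell types, 5 of 15 neuronal genes were lower and 3 higher, 5 of 12 oligodendrocyte precursor genes were lower and 2 higher, and 3 of 15 microglial, 3 of 15 endothelial, 3 of 9 ependymal, 1 of 15 oligodendrocyte and 1 of 14 subventricular genes were lower. Pericyte and smooth muscle genes were lower in 2 and higher in 1 of 11, and meningeal fibroblast genes lower in 1 and higher in 1 of 12. The part of these cell types in the result was not tested.

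The response to fluoxetine differed between the genotypes for 7 of the 31 markers, with 24.0% of all genes called, a share near that of the members. The difference, Het minus WT, was negative for Ntsr2 (limma log2 fold -0.32, SE 0.089, adjusted p = 0.00749) and Hes5 (log2 fold -0.48, SE 0.15, adjusted p = 0.0144). It was positive for Aqp4 (log2 fold 0.51, SE 0.15, adjusted p = 0.0107), Bmpr1b (log2 fold 0.31, SE 0.099, adjusted p = 0.0174), Slc4a4 (log2 fold 0.39, SE 0.14, adjusted p = 0.0325), Slc39a12 (log2 fold 0.23, SE 0.082, adjusted p = 0.0343) and Id4 (adjusted p = 0.0352). Aqp4 had medians of 4473 in WT vehicle and 3673 in WT fluoxetine, against 3846 in Het vehicle and 4128 in Het fluoxetine. The Aqp4 fold was negative in WT and positive in Het, and neither passed its own test with all libraries. In Het it passed without the 4 libraries of largest spread (log2 fold 0.27, limma adjusted p = 0.0220), without Het vehicle male replicate 5 (adjusted p = 0.0398) or without Het fluoxetine male replicate 5 (adjusted p = 0.0479). In WT it passed without WT fluoxetine female replicate 5 (log2 fold -0.34, limma adjusted p = 0.0258) and after GC correction (log2 fold -0.29, adjusted p = 0.0302). Ntsr2, Aqp4, Hes5 and Bmpr1b were called in all 40 fits that left out 1 library; 4 members in all were called without Het fluoxetine male replicate 2, Het vehicle male replicate 4, WT fluoxetine female replicate 2 or WT vehicle female replicate 2. After GC correction 1 member was called (Ntsr2), and 0 with the library term. Without the 4 libraries of largest spread 9 were called, adding Aldh1l1 and Gja1.

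With vehicle, Het and WT showed no marker past the threshold (limma and edgeR 0 of 31; 5 with an unadjusted p below 0.05; 0.590% of all genes called). The folds were negative for 27 of the 31, with a median of -0.088 against -0.0024 over all genes. Within females the members' median was 0.0045 and within males -0.16, with 0 and 11 members at an unadjusted p below 0.05 (limma). In each sex 0 members were called, and 0 passed the test of a difference between the sexes. Aqp4 ran from 3722 to 4852 (median 4473) in WT vehicle and from 2350.1 to 4628 (median 3846) in Het vehicle (limma log2 fold -0.27, SE 0.10, adjusted p = 0.305). Gfap ran from 2169 to 4395 (median 3543) in Het vehicle, against a median of 4545 in WT vehicle (limma log2 fold -0.37, SE 0.15, adjusted p = 0.325). Kcnj10 ran from 5150.3 to 6565 (median 5731) in WT vehicle and from 4145 to 6222 (median 5248) in Het vehicle (limma log2 fold -0.17, SE 0.074, adjusted p = 0.396). In each the Het range reached below the WT range and overlapped it. Without the 4 libraries of largest spread Gfap was called (log2 fold -0.51, limma adjusted p = 0.0347). The WT vehicle libraries are the same as in the drug comparisons in WT, so the mostly negative folds of all 3 comparisons share 1 reference.

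**Figure D5:**
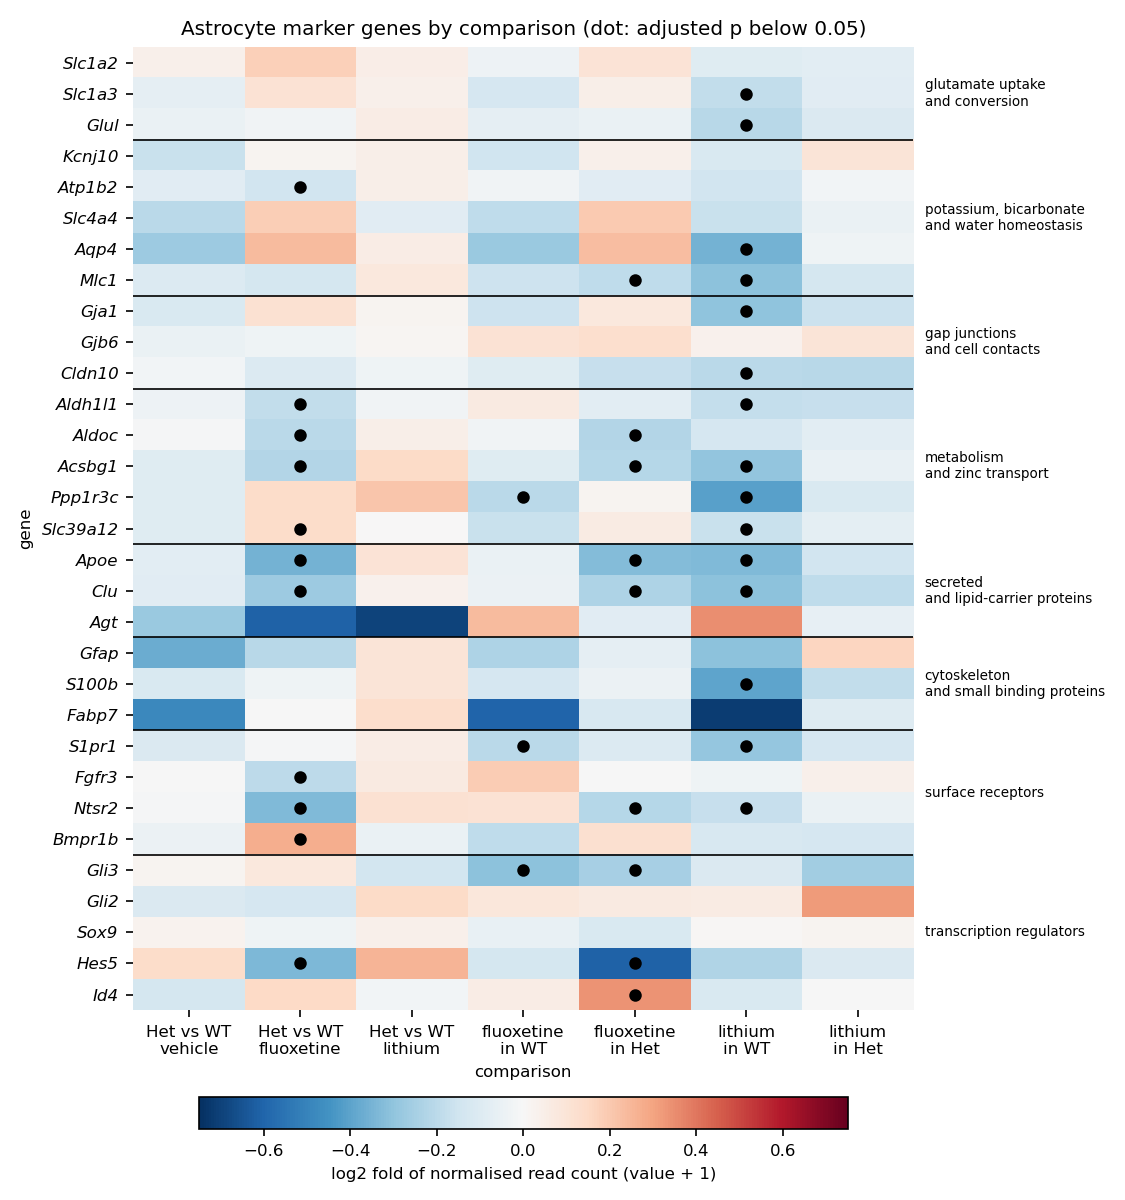
Log2 fold of the 31 markers (rows, grouped by role) in the 7 comparisons between groups (columns), from blue (lower) to red (higher); dots mark an adjusted p below 0.05. The column of lithium in WT has 15 dots, all on blue cells, and the columns of the vehicle, Het lithium and Het against WT lithium comparisons have none.

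Over the 30 libraries of each sex, no marker passed the test of males against females (limma and edgeR 0 of 31; 1 with an unadjusted p below 0.05; 0.107% of all genes called). The 3 with the smallest p were Aldh1l1 (males minus females, limma log2 fold -0.078, SE 0.034, adjusted p = 0.999), Aldoc (log2 fold -0.066, SE 0.038, adjusted p = 0.999) and Sox9 (log2 fold -0.045, SE 0.035, adjusted p = 0.999). The Aldh1l1 and Aldoc levels by library above, in WT, show the sexes of the vehicle group overlapping.

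Averaged over the 31 members, each library's deviation from the mean of all libraries (log2 scale) was highest in WT vehicle, with a median of 0.13 (-0.058 to 0.24), and lowest in WT lithium, with a median of -0.086 (-0.19 to 0.11). The medians were 0.035 for Het vehicle, 0.011 for WT fluoxetine, -0.063 for Het fluoxetine and -0.061 for Het lithium. The ranges of all 6 groups overlapped. The single highest library was WT fluoxetine female replicate 5 at 0.38.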

How the data were processed

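RNA-seq libraries of prefrontal cortex (stranded mRNA kit, per the labels' protocols) were deposited as 1 table of normalised read counts for 18088 genes and 60 libraries. The deposited values are a signal: read counts per gene that the authors divided by a size factor for each library, and the values are whole multiples of 1 step per library in 100.0% of cases (tolerance 0.001 reads), which gave back the whole reads. The submitters' processing notes list Salmon 0.11.2, DESeq2 1.19.11, R 3.6.0 and GRCm38 but no role for any of them, and strand use in counting is not stated in the labels. Gene IDs were matched to symbols with GENCODE M21 for 18077 genes.

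The 31 members, their functional groups and the other gene lists were chosen with earlier results of these data known. The 17810 genes that reached a value of 10 in 5 or more libraries were fitted with limma 3.58.1 (trend and robust options, R 4.3.3) on log2(value + 1), with 12 group means for genotype, drug and sex and 48 residual degrees of freedom. Folds are thus on the log2(value + 1) scale, which understates changes of low genes. Contrasts were averaged over the sexes, and p-values were Benjamini-Hochberg adjusted over all genes tested in a contrast. The fit was tested on simulated data with changes larger than most folds of the called members. Recovery of changes as small as theirs was not tested. Libraries said to lie in a direction were set against the other group's mean of the same sex.

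Alternatives were TMM factors, no filter, a pseudocount of 5, the compared groups fitted alone, the replicate number as a block, edgeR 4.0.16 quasi-likelihood on the recovered reads (17776 genes), a GC correction (loess, span 0.3), a term for the 10 libraries with low pseudogene counts, and each library left out. Leaving out together the 4 libraries with the largest residual spread was chosen after seeing the data, and so were the alternatives for sex differences beyond the left-out libraries. Every member is accounted for. Statistics are printed for members called in a comparison (the 6 with the smallest p where more are called, the 3 with the smallest p where none is), lowest, median and highest values for up to 4 members per comparison and for Slc1a2, Slc1a3, Gfap, Aqp4, Aldh1l1, Gja1 and Glul, and up to 3 called genes per other list. Depth was 23901635 to 37769417 reads per library.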

Additional observations from a re-analysis of the deposited data

Results flagged for a closer look

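In each group of 5 libraries, the 18 members with printed values were checked for a library whose gap to its nearest neighbour was more than 0.71 of the group's range (Dixon's critical value). Of 216 such checks 18 found one, and chance alone gives about 1 in 20. WT fluoxetine female replicate 5 stood apart in 7 of them, each time above the other 4 libraries of its group: Slc1a3 (24537 against 17035 to 18446), Aqp4 (5238 against 3149.5 to 3701), Gja1 (7018 against 4862 to 4997), Glul (59491 against 42411 to 45664), Apoe (40955 against 35045 to 36693), S1pr1 (4795 against 3209 to 3582) and S100b (2952 against 2264 to 2393), all in normalised reads. This library also had the highest mean over the 31 members.

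The other high values, in normalised reads against the rest of the group, were Slc1a2 in WT lithium male replicate 5 (113940 against 84240.4 to 87277), Aldh1l1 in WT lithium female replicate 5 (2274 against 1439 to 1626), Bmpr1b in WT vehicle female replicate 2 (842 against 640.4 to 682), Glul in Het vehicle female replicate 3 (59452 against 43252 to 47316), Mlc1 in Het fluoxetine male replicate 2 (3909 against 3099 to 3309), S100b in Het lithium male replicate 2 (2194 against 2044 to 2063) and Aldh1l1 in Het fluoxetine female replicate 3 (1658 against 1528 to 1565). The low values were Aqp4 in WT fluoxetine male replicate 4 (2585 against 3645 to 3999), Aldh1l1 in WT fluoxetine female replicate 1 (1574 against 1839 to 1944), S1pr1 in Het fluoxetine female replicate 1 (3487 against 3866 to 3951) and Apoe in Het lithium male replicate 4 (26100.1 against 31979 to 32824). WT lithium female replicate 5 is also 1 of the 4 libraries with the largest residual spread, as are WT lithium male replicate 5 and WT vehicle female replicate 2.

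The effect of fluoxetine differed between Het and WT by limma's interaction test for 7 members, given as the log2 difference of Het minus WT: Ntsr2 (-0.32, adjusted p = 0.00749), Id4 (0.28, adjusted p = 0.0352), Aqp4 (0.51, adjusted p = 0.0107), Slc39a12 (0.23, adjusted p = 0.0343), Hes5 (-0.48, adjusted p = 0.0144), Bmpr1b (0.31, adjusted p = 0.0174), Slc4a4 (0.39, adjusted p = 0.0325). The effect of lithium in WT differed between the sexes, males minus females, for Aldoc (-0.44, adjusted p = 0.0318) and Aldh1l1 (-0.37, adjusted p = 0.0390) by limma's test of that difference. Over all genes 24.0% were called in the fluoxetine test and 9.64% in the sex test, so neither count of members stands above its background. Of the 7 and the 2 members, 0 stayed called under every other setting of the processing.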

How the results depend on the processing

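Numbers below are counts of the 31 members called. In the main fit 19.2% of all genes were called for lithium in WT, 8.43% for fluoxetine in WT and 39.0% for fluoxetine in Het. The shares were 39.5% for Het against WT under fluoxetine and 24.0% for the genotype by fluoxetine difference. The share of all genes under each other setting is not given here, so a changed count is not a result about the members. For lithium in WT the count stayed at 15 with TMM factors, no filter, a pseudocount of 5, edgeR and the replicate block; it was 10 with the groups fitted alone, 13 with the library term, 17 with GC correction and 16 without the 4 libraries of largest residual spread. It ran from 12 to 17 over the fits that left out 1 library. Of the 15 genes, 11 were called in every such fit and 10 under every other setting. Every fold of the 15 kept its sign.

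GC correction moved Het against WT under fluoxetine from 11 to 1, fluoxetine in WT from 3 to 9 and the genotype by fluoxetine difference from 7 to 1. The library term gave 0 for Het against WT under fluoxetine, 0 for fluoxetine in Het (9 otherwise) and 0 for the genotype by fluoxetine difference. Under that term Apoe reversed in Het against WT under fluoxetine (log2 fold 0.048) and in fluoxetine in Het (0.082), and Slc39a12 reversed in Het against WT under fluoxetine (-0.00099). For lithium in Het the count of 0 became 1 with the groups fitted alone, 1 with GC correction and 2 without the 4 libraries; for Het against WT with vehicle it became 1 without the 4 libraries. Leaving those 4 out gave 15 for Het against WT under fluoxetine, 13 for fluoxetine in Het, 4 for fluoxetine in WT and 9 for the genotype by fluoxetine difference. For the sex differences the count of 2 became 0 with the groups fitted alone, 0 with GC correction, 0 with the library term and 0 without the 4 libraries. The cause was not tested.

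Leaving out 1 library gave 9 to 16 for Het against WT under fluoxetine, 2 to 9 for fluoxetine in WT, 9 to 12 for fluoxetine in Het, 0 to 1 for lithium in Het, 4 to 10 for the genotype by fluoxetine difference and 0 to 6 for the sex differences. The sex differences gave 0 without WT lithium female replicate 5, WT lithium male replicate 5, WT vehicle female replicate 2 or WT vehicle male replicate 1 or 2, 1 without WT vehicle female replicate 3 or male replicate 3 or 4, 6 without WT lithium female replicate 4, and 4 without Het vehicle female replicate 3, WT lithium female replicate 1, WT lithium male replicate 1, 3 or 4, or WT vehicle female replicate 5. The count was 0 in every such fit for Het against WT with vehicle or lithium, for the genotype by lithium difference and for males against females. Males against females cannot be fitted with the groups alone, since it uses all groups.

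No pairing by replicate number was seen: 10 of 70 same-numbered pairs deviated together at r above 0.1, with r from -0.34 to 0.29. Over all groups the mean r was 5.4e-05 for the same number and -3.2e-05 for other numbers. The labels do not say what a number marks, and a small shared effect could pass unseen. With the replicate block the counts were 0 for Het against WT with vehicle, 10 with fluoxetine and 0 with lithium, 2 for fluoxetine in WT (Ppp1r3c was not called), 10 for fluoxetine in Het, 15 for lithium in WT, 0 for lithium in Het, 7 and 0 for the genotype by fluoxetine and by lithium differences, 0 for males against females and 2 for the sex differences. Agt, Gli2, Hes5 and Gli3 had the lowest normalised counts of the members. Counting error was not separated from the spread between libraries.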
